A study of Mus musculus with 16 samples.

Results

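Neurotrophins are secreted growth factors that neurons use to signal to one another and to glia, and 7 genes of this system were followed in the mouse dorsal hippocampus, the part of the hippocampus needed for spatial memory. They were taken by symbol from the 35328 genes of the count table and are 2 ligands (Bdnf and Ntf3), 4 receptors (Ntrk2, Ntrk3, Ngfr and Sort1) and 1 target gene (Vgf). All 7 passed the filter on low counts, as did 17830 genes in all. The mice were C57Bl6/J and were given either plain water or caffeine at 0.3 g/L in the drinking water for 2 weeks, starting at 8 to 9 weeks of age. In each arm 4 mice stayed undisturbed in the home cage (HC) and another 4 were trained for 3 days in a Morris water maze (MWM), where a mouse has to learn the place of a hidden platform, with tissue taken 1 hour after the final session. This gave HC_water, HC_Caffeine, MWM_water and MWM_Caffeine groups of 4 mice each, and mRNA was measured by RNA-Seq in the 16 libraries, which held between 23078094 and 49949281 gene counts. The questions were whether training, caffeine or their combination moved the mRNA of these genes.

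BDNF binds the receptor tyrosine kinase TrkB, encoded by Ntrk2, and NT-3, encoded by Ntf3, binds TrkC, encoded by Ntrk3. Both are made as proneurotrophins that are cleaved to mature ligand, and the uncleaved forms bind p75NTR, encoded by Ngfr, together with sortilin, encoded by Sort1, which also sorts BDNF inside the cell. In the hippocampus BDNF is known for its release during neuronal activity and for its part in lasting changes of synaptic strength, and Vgf, which encodes a secreted neuropeptide precursor, is a classical neurotrophin-induced gene.

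The Bdnf gene lies on chromosome 2 between 109674700 and 109727007 on the plus strand of mm10. It has several starts, whose RNAs share the same coding exon. The table of RefSeq start windows used here (build GRCm38.p6) holds 7 for Bdnf, 2 for Ntf3, and 1 each for Ntrk2 and Ngfr. Start windows of Ntrk3, Sort1 and Vgf were not analysed here. The 250 bases before each start were searched on both strands for the cyclic AMP response element TGACGTCA, for its shorter core TGACG, which the full element contains, and for the EGR motif GCGNGGGCG. Of the 11 windows, 1 held a match, a core that begins 35 bases before an internal Bdnf start, whose window is chr2:109692186-109692435 on the plus strand. Among 32851 windows of the same length over all genes, 17.8% held the core, 1.55% the full element and 4.7% the EGR motif. That window is shown with the one before the first Bdnf start, chr2:109674450-109674699, because the deposited count adds up the RNA of every start. The capitals mark the core, here on the opposite strand.
Bdnf first start: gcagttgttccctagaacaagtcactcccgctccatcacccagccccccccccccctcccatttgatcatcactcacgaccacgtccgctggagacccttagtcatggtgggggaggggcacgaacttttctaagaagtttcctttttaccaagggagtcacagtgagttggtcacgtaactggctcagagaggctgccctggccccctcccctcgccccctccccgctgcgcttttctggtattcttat
Bdnf internal start: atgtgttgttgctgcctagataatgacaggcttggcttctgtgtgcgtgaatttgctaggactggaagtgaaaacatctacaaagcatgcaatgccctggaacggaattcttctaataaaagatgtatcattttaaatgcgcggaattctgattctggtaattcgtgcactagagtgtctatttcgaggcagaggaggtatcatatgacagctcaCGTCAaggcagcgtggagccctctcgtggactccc
A change at 1 start could therefore be hidden by the others in the values that follow, and no start was measured by itself.

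The other members lie, in mm10, at chr6:126101412-126166910 on the minus strand (Ntf3), chr13:58806569-59133970 on the plus strand (Ntrk2), chr7:78175959-78738012 on the minus strand (Ntrk3), chr11:95568818-95587735 on the minus strand (Ngfr), chr3:108284082-108361511 on the plus strand (Sort1) and chr5:137026392-137033351 on the plus strand (Vgf). Sort1 was the most abundant of the 7 mRNAs, and the p75 receptor was the scarcest. Per length of annotated exon (RPKM, CPM divided by kilobases of exon, CPM being counts per 1000000 counts of the library), Sort1 was at 103 ± 6.13 (SD, n = 16), Vgf at 53.7 ± 6.53 and Ntrk2 at 28.7 ± 1.86. Bdnf followed at 11.4 ± 1.32 and Ntrk3 at 9.04 ± 0.918 RPKM, and the ranges of these neighbours overlapped although Bdnf was the higher of the pair in 16 of 16 mice. Ntf3 lay at 4.63 ± 1.07 RPKM and Ngfr at 0.618 ± 0.175 RPKM, and no other neighbours in this order overlapped. Exonic lengths run from 1714 bases for Ntf3 to 30170 bases for Ntrk3 and join all annotated isoforms, so the order depends on them, and full-length and truncated TrkB or TrkC, which share the genes Ntrk2 and Ntrk3, were counted together. The spread over the 16 mice was smallest for Sort1 and Ntrk2 (coefficients of variation of 5.94% and 6.50%) and widest for Ntf3 and Ngfr (23.01% and 28.4%). The last 2 genes rested on few reads, with 163 to 410 counts of Ntf3 and 40 to 101 counts of Ngfr per library.

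**Figure D1:**
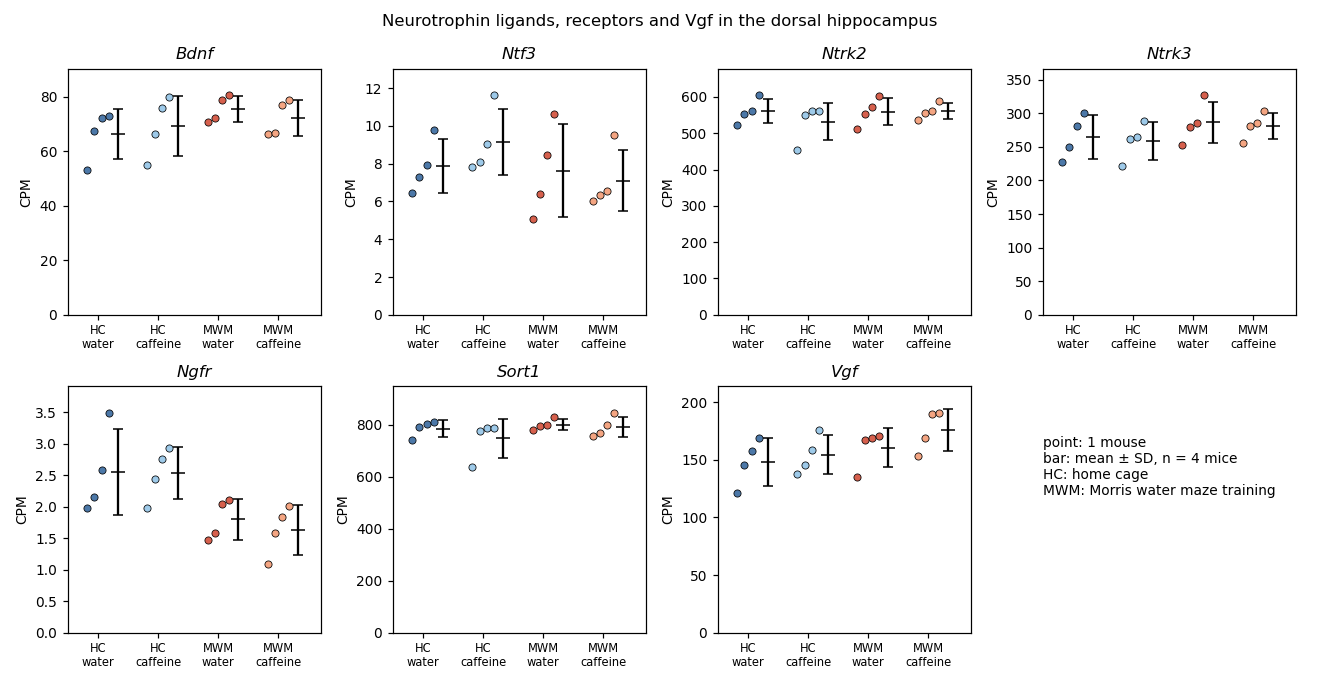
Library-scaled counts (CPM, linear axis from 0) of the 7 genes in each mouse of the 4 groups; each point is 1 mouse and the bar beside it gives the mean ± SD (n = 4). Ngfr lies lower in both MWM groups than in both HC groups, with overlap, and the other genes overlap widely.

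No difference of the ligands between trained and home cage mice passed the threshold. Bdnf was at 53.2, 67.6, 72.8 and 72.3 CPM in HC_water mice 6, 8, 11 and 20. In MWM_water mice 24, 33, 36 and 38 it was at 70.6, 72.2, 78.8 and 80.7 CPM. The trained mice had a narrower range, and HC_water mouse 6 lay below the rest. In HC_Caffeine mice 2, 9, 14 and 17 Bdnf was at 75.8, 66.4, 79.9 and 55.0 CPM. In MWM_Caffeine mice 22, 27, 30 and 40 it was at 79.0, 66.4, 66.7 and 77.1 CPM. These groups covered one another. The log2 fold change of MWM against HC was 0.18 in water mice (95% confidence interval -0.05 to 0.41) and 0.06 in caffeine mice (-0.17 to 0.29). Averaged over both treatments it was 0.12 (-0.04 to 0.28; adjusted p = 0.34 by edgeR's quasi-likelihood test) and its upper bound is a 1.22-fold rise. A noncoding gene on the opposite strand, Gm45346, shares 896 exonic bases with Bdnf but had only 1 to 16 counts per library, and whether the counting used strand was not stated.

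Ntf3, whose RNA in the adult hippocampus is known to be made chiefly by dentate granule cells, was at 6.47, 7.93, 9.79 and 7.28 CPM in HC_water and at 5.06, 6.38, 8.45 and 10.7 CPM in MWM_water, with the mice in the order given above. In HC_Caffeine it was at 9.04, 7.84, 11.6 and 8.09 CPM and in MWM_Caffeine at 6.32, 6.57, 6.00 and 9.52 CPM. In the caffeine arm 3 of the 4 trained mice lay below every untrained one and the remaining one, mouse 40, did not. The log2 fold change was -0.05 in water mice (standard error 0.21), -0.37 in caffeine mice (standard error 0.20) and -0.21 over both treatments (standard error 0.15; adjusted p = 0.376, edgeR). None of these passed the threshold.

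The Trk receptors and sortilin differed little between the groups. Ntrk2 lay between 524 and 605 CPM in HC_water and between 512 and 601 CPM in MWM_water, and between 455 and 562 CPM in HC_Caffeine and 536 and 589 CPM in MWM_Caffeine. Its log2 fold change with training over both treatments was 0.04 (95% confidence interval -0.07 to 0.14; adjusted p = 0.689, edgeR), which is a narrow interval. Ntrk3 lay between 227 and 299.8 CPM in HC_water, 221 and 288 CPM in HC_Caffeine, 253 and 327 CPM in MWM_water, and 256 and 303 CPM in MWM_Caffeine, with a log2 fold change of 0.12 (-0.02 to 0.26; adjusted p = 0.285, edgeR). Sort1, the most abundant of the 7, lay between 636 and 846 CPM over all mice and differed by 0.06 (-0.04 to 0.15; adjusted p = 0.466, edgeR). Gm12523, opposite Sort1, shares 338 exonic bases with it and had 1 to 6 counts. HC_Caffeine mouse 17 had the lowest Ntrk2, Ntrk3 and Sort1 of the 16 mice. Its library also had the highest share of mitochondrial counts (4.49%, against 3.23% to 3.89% in the other 15), and the part of this in its receptor values was not tested. Without this mouse Ngfr was the only gene of the 7 called in any comparison of the edgeR fit without covariates, as with it.

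In the edgeR fit without covariates Ngfr was the 1 gene of the 7 called for training, and it fell. Vgf and Ntf3 were called in other fits, given further on. It was at 3.49, 1.98, 2.58 and 2.15 CPM in HC_water mice and at 2.11, 2.05, 1.58 and 1.47 CPM in MWM_water mice. In HC_Caffeine mice it was at 2.45, 2.93, 1.99 and 2.76 CPM and in MWM_Caffeine mice at 1.84, 2.01, 1.59 and 1.09 CPM. Of the 8 trained mice, 5 lay below every home cage mouse, and the others overlapped the lower end of the untrained range. Over both treatments Ngfr was lower by a log2 fold change of -0.55 (standard error 0.15; 95% confidence interval -0.86 to -0.24; adjusted p = 0.0318, edgeR), from 2.54 ± 0.521 CPM (SD, n = 8) to 1.72 ± 0.350 CPM (n = 8). In this comparison 14.5% of all genes tested passed the threshold, and 6.71% did so as lower in training, so 1 called gene of 7 is a share near the background. Taken by arm, the fold change was -0.48 in water mice (adjusted p = 0.379, edgeR) and -0.62 in caffeine mice (adjusted p = 0.126, edgeR), and neither passed. Training called 0 of the 7 genes in the water arm, where 0.97% of all genes passed, and 0 in the caffeine arm, where 5.28% passed. At an unadjusted p under 0.05 edgeR held 1 gene of the 7 in each arm, Ngfr, beside 11.8% (water) and 18.8% (caffeine) of all genes. DESeq2 called 0 of the 7 in water and 1, Ngfr again, in caffeine (-0.61, adjusted p = 0.0655). In these arms DESeq2 called 426 and 1581 of all 17830 genes. With each mouse left out in turn, Ngfr passed in caffeine mice by edgeR in only 3 of 16 fits. These were without HC_water mouse 6, HC_Caffeine mouse 14 or MWM_Caffeine mouse 27 (adjusted p = 0.0904, 0.087 and 0.098), and the highest adjusted p of the 16 was 0.288.

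The hippocampus is a mixed tissue, and in bulk samples fewer cells of a type and less RNA per cell cannot be told apart. The p75NTR protein of the adult hippocampus is known mainly from axons of basal forebrain cholinergic neurons, whose cell bodies lie outside the tissue taken. Of 14 lists of cell type markers, the microglial list (8 genes) was lower after training by 0.13 in mean log2 CPM (exact permutation p = 0.00497, two-sided, n = 8 against 8; Benjamini-Hochberg adjusted over the 14 lists, 0.0696), with summed levels of 440 to 510 CPM in HC and 412 to 474 CPM in MWM mice. The choroid plexus list (8 genes) was lower by 0.99 (exact permutation p = 0.034, two-sided, n = 8 against 8; adjusted, 0.159), with summed levels of 190 to 2349 CPM in HC and 115 to 434 CPM in MWM mice. Its mean log2 level was 4.26 in HC_water, 2.79 in HC_Caffeine, 2.86 in MWM_water and 2.21 in MWM_Caffeine mice. The high level was thus that of HC_water and not of both HC groups. The CA1 pyramidal list (4 genes) was lower by 0.25 (exact permutation p = 0.0235, two-sided, n = 8 against 8; adjusted, 0.159). No marker of these lists was at 0 in any mouse. With the choroid plexus level as a covariate in the edgeR fit, the log2 fold change of Ngfr was -0.66 (adjusted p = 0.058). The part of the microglial and CA1 levels in the Ngfr result was not tested.

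Vgf had a higher mean in trained mice, a difference that did not pass the threshold. It was at 169, 121, 145 and 157 CPM in HC_water mice and at 167, 171, 169 and 135 CPM in MWM_water mice. In HC_Caffeine mice it was at 176, 145, 137 and 159 CPM and in MWM_Caffeine mice at 190.1, 169, 191 and 153 CPM. Both MWM_Caffeine mice 22 and 30 lay above every home cage mouse, whereas MWM_water mouse 38 lay below the other 3 of its group. The log2 fold change was 0.12 in water mice, 0.19 in caffeine mice and 0.15 over both treatments (standard error 0.07; 95% confidence interval -0.0042 to 0.31; adjusted p = 0.208, edgeR). For comparison, Fos and Egr2, immediate early genes that report recent neuronal activity, rose over both treatments by 1.98 and 3.45 on the log2 scale (adjusted p = 2.01e-07 and 1.70e-08, edgeR), in the same libraries. Npas4, an activity-dependent transcription factor, rose by 0.46 (adjusted p = 0.026), Arc by 1.06 (adjusted p = 2.42e-04), and Nptx2, another activity-regulated secreted protein, differed by 0.15 (adjusted p = 0.302). By arm, Npas4 passed in water mice (0.73, adjusted p = 0.0812, edgeR) and not in caffeine mice (0.20, adjusted p = 0.540, edgeR). The difference between these responses did not pass (-0.53, adjusted p = 0.99997, edgeR). The Npas4 mean was 5.86 CPM in HC_water, 9.33 in HC_Caffeine, 9.71 in MWM_water and 10.7 in MWM_Caffeine mice (n = 4 each).

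**Figure D2:**
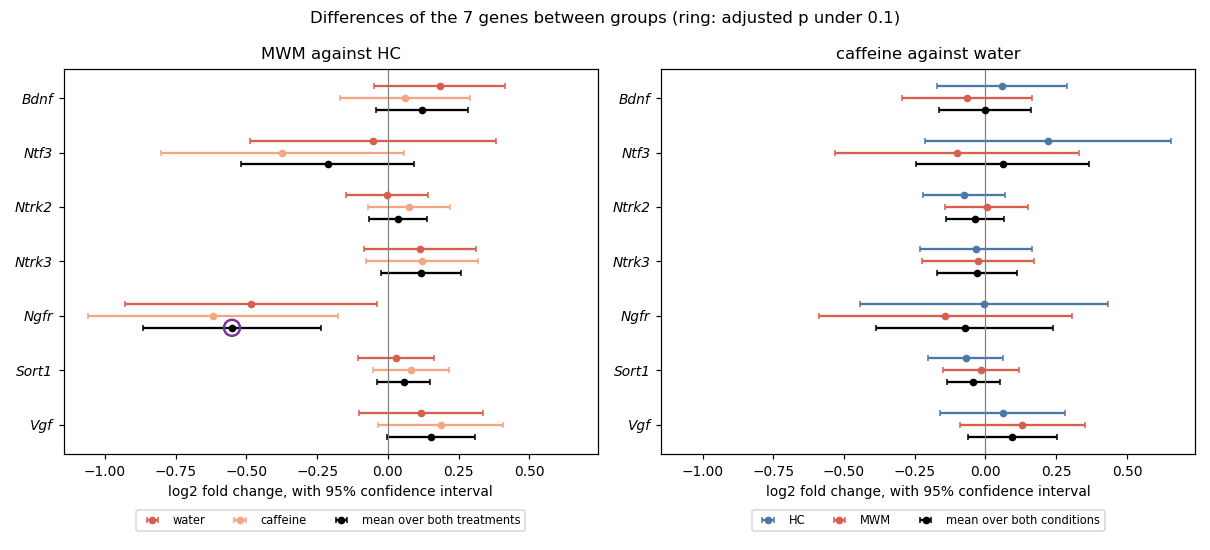
Log2 fold changes (points) with 95% confidence intervals (bars) of the 7 genes, for MWM against HC on the left and caffeine against water on the right, by arm and averaged; a ring marks an adjusted p under 0.1 in edgeR's test. The single ring is Ngfr for training over both treatments (-0.55), and every interval in the right panel includes 0.

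No difference between caffeine and water passed the threshold for any of the 7 genes. In the home cage edgeR called 0 of 7 (background 0.0% of all genes), with 0 at an unadjusted p under 0.05. DESeq2 also called 0 of 7, beside 19 of all 17830 genes. The same counts of 0 held among trained mice, over both conditions and for the difference between caffeine and water training responses (edgeR background 0.0% each). The DESeq2 count of the 7 was again 0 in each, beside 7 (MWM), 15 (both conditions) and 7 (difference of responses) of all genes. The shares of all genes at an unadjusted p under 0.05 were 3.57% (HC), 3.93% (MWM), 4.07% (both conditions) and 3.63% (difference of responses). The log2 fold change of caffeine against water over both conditions was -0.0033 for Bdnf (95% confidence interval -0.17 to 0.16), 0.06 for Ntf3 (-0.25 to 0.37) and 0.10 for Vgf (-0.06 to 0.25). For the receptors it was -0.04 for Ntrk2 (-0.14 to 0.07), -0.03 for Ntrk3 (-0.17 to 0.11), -0.07 for Ngfr (-0.39 to 0.24) and -0.04 for Sort1 (-0.14 to 0.05). Of these, the intervals for Ntrk2 and Sort1 were the narrowest, and those for Ntf3 and Ngfr the widest. The training response of Ntf3 in caffeine mice minus that in water mice was -0.32 (-0.93 to 0.29), that of Bdnf -0.12 (-0.45 to 0.20), that of Ngfr -0.14 (-0.76 to 0.49) and that of Vgf 0.07 (-0.24 to 0.38), all with an adjusted p of 0.99997 (edgeR). No groups of these genes were free of overlap in any of the 6 comparisons between groups of mice, where 1.99% (caffeine, HC), 2.6% (caffeine, MWM), 6.99% (training, water), 10.9% (training, caffeine), 1.32% (training, both treatments) and 0.00561% (caffeine, both conditions) of all genes tested were.

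The level of dentate granule cell markers differed between the tissue samples, and 3 of the 7 genes followed it. The summed level of 8 dentate granule cell markers, Prox1 and Calb1 among them, ran from 611 to 892 CPM in HC_water, 558 to 934 CPM in HC_Caffeine, 650 to 987 CPM in MWM_water and 680 to 937 CPM in MWM_Caffeine mice, with no marker at 0. Its mean log2 level was higher in trained mice by 0.19 (exact permutation p = 0.191, two-sided, n = 8 against 8), within the spread. In the edgeR fit with this level as a covariate, 18.4% of all genes had a slope that passed. Ntf3 rose with the marker level by a slope of 0.88 (standard error 0.19; adjusted p = 0.00801) and Ntrk3 by 0.42 (standard error 0.08; adjusted p = 0.00442), both in log2 units per log2 unit. Vgf fell along it, with a slope of -0.47 (standard error 0.09; adjusted p = 0.00447). The slopes of Bdnf (0.31, adjusted p = 0.134), Ntrk2 (0.18, adjusted p = 0.164), Ngfr (-0.64, adjusted p = 0.115) and Sort1 (0.08, adjusted p = 0.602) did not pass.

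**Figure D3:**
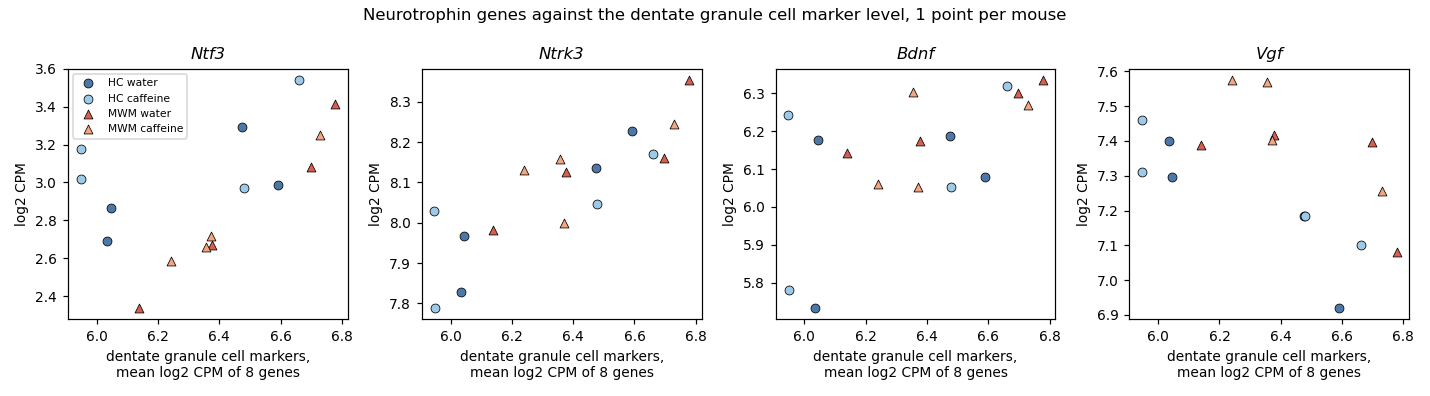
Log2 CPM of Ntf3, Ntrk3, Bdnf and Vgf (vertical axes) against the mean log2 CPM of 8 dentate granule cell markers (horizontal axes), 1 point per mouse; circles are HC and triangles MWM. At like marker levels Ntf3 sits lower and Vgf higher in most MWM mice.

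Holding the marker level equal in this way, an alternative added after the data were seen, brought 2 more genes past the threshold for training over both treatments. Vgf was then higher in trained mice by 0.24 (standard error 0.05; adjusted p = 0.00806) and Ntf3 lower by -0.40 (standard error 0.11; adjusted p = 0.034), and Ngfr was lower by -0.44 (adjusted p = 0.0702). In this fit 10.5% of all genes passed. When each of the 8 markers and each of the 16 mice was left out in turn, Vgf passed in 24 of 24 fits (adjusted p from 0.00601 to 0.0233), Ntf3 in 22 (without HC_water mouse 11, adjusted p = 0.1089; without MWM_water mouse 24, adjusted p = 0.1091) and Ngfr in 18. Ngfr missed the threshold without HC_water mouse 11, HC_Caffeine mouse 9 or 14, MWM_water mouse 24 or 33, or MWM_Caffeine mouse 30 (adjusted p from 0.101 to 0.162). The Vgf difference was 0.08 (adjusted p = 0.675) with the choroid plexus level as the covariate instead, and 0.21 (adjusted p = 0.0241) when trends of each library with GC content and gene length were removed, so its call depended on what was held equal. Among caffeine mice the same dentate fit gave 0.27 for Vgf (adjusted p = 0.0415) and -0.54 for Ntf3 (adjusted p = 0.0499), with 5.96% of all genes passing. Both missed the threshold in the same 3 of 24 fits, without HC_Caffeine mouse 14 or MWM_Caffeine mouse 22 or 30 (adjusted p from 0.138 to 0.152 for Ntf3 and from 0.101 to 0.126 for Vgf).

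The rest of the neurotrophin pathway moved mostly upward with training where it moved. Of 136 listed genes, 135 were in the table and 132 were tested. The list was chosen with earlier results of these data known, so its shares and those of its roles below are description only. Over both treatments 23 of the 132 passed, 21 higher and 2 lower, a share of 17.4% against 14.5% of all genes (7.81% higher). The median log2 fold change of the 132 was 0.04, beside -0.01 for all genes tested. In water mice 3 passed (Pcsk1, Irs2 and Plat, all higher), a share of 2.27% against 0.97%. In caffeine mice 7 passed, all higher, a share of 5.30% against 5.28%, which is the background. Leaving out 1 mouse moved these counts, which ran from 14 to 30 over both treatments, 2 to 6 in water mice and 3 to 10 in caffeine mice. The shares of all genes in these fits are not given here, so the counts cannot be set against a background. Over both treatments 14 passed without HC_water mouse 20 or MWM_water mouse 36 and 15 without MWM_Caffeine mouse 40. In water mice 6 passed without HC_Caffeine mouse 17, which enters through the shared estimate of spread. In caffeine mice 4 passed without HC_Caffeine mouse 17 or MWM_Caffeine mouse 30, and 3 without MWM_Caffeine mouse 40. Caffeine called 0 of the 132 in either condition or over both, and 0 differed in training response, by edgeR and by DESeq2 alike. Of all 17830 genes edgeR called 0 in each, and DESeq2 called 19 (HC), 7 (MWM), 15 (both conditions) and 7 (difference of responses). At an unadjusted p under 0.05 in edgeR there were 3 (HC), 1 (MWM), 1 (both conditions) and 1 (difference of responses). The shares of all genes under it were, in the same order, 3.57%, 3.93%, 4.07% and 3.63%.

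Ntf5 and the sortilin relatives were not called in any comparison. Ntf5, which encodes the second TrkB ligand NT-4, was near the limit of detection with 2 to 15 counts per library. The sortilin relatives Sorl1, Sorcs1 and Sorcs2 differed by 0.06, 0.01 and 0.07, and Sorcs3 by -0.12 (-0.24 to -0.01; adjusted p = 0.168, edgeR).

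Of 13 tested genes for processing and secretion, 4 rose with training over both treatments (30.8%, against 7.81% of all genes higher), with a median log2 fold change of 0.01 over the 13 beside -0.01 for all genes. They were Pcsk1, Plat, Furin and Htt. Pcsk1, which encodes prohormone convertase 1/3 of the regulated secretory pathway and cuts VGF as well, was at 19.6, 20.1, 19.2 and 22.8 CPM in HC_water mice and at 19.8, 19.9, 20.1 and 19.7 CPM in HC_Caffeine mice. It was at 27.6, 26.4, 26.5 and 30.0 CPM in MWM_water mice and at 24.6, 26.4, 25.98 and 25.02 CPM in MWM_Caffeine mice. Every trained mouse lay above every home cage mouse, and Pcsk1 rose by 0.43 in water mice (adjusted p = 0.00357), 0.36 in caffeine mice (adjusted p = 0.00572) and 0.40 over both (standard error 0.04; adjusted p = 6.70e-05, edgeR). Plat, the gene of tissue plasminogen activator, which activates the plasmin that cleaves proBDNF outside the cell, ranged from 34.7 to 38 CPM in home cage mice and from 39.4 to 49.2 CPM in trained mice, again without overlap. It rose by 0.26 over both treatments (standard error 0.04; adjusted p = 0.00227), by 0.27 in water mice (adjusted p = 0.0812, lost in 7 of 16 fits with a mouse left out) and by 0.25 in caffeine mice (adjusted p = 0.041, edgeR). Plg, the plasmin precursor itself, was not tested for lack of counts. Furin, which encodes the convertase of the constitutive pathway, rose by 0.16 (standard error 0.04; adjusted p = 0.0179), from 32.3 to 36.1 CPM in home cage mice to 35.4 to 40.4 CPM in trained mice, and its groups overlapped. Htt, whose protein carries BDNF vesicles along axons, rose by 0.17 (adjusted p = 0.0397, edgeR).

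**Figure D4:**
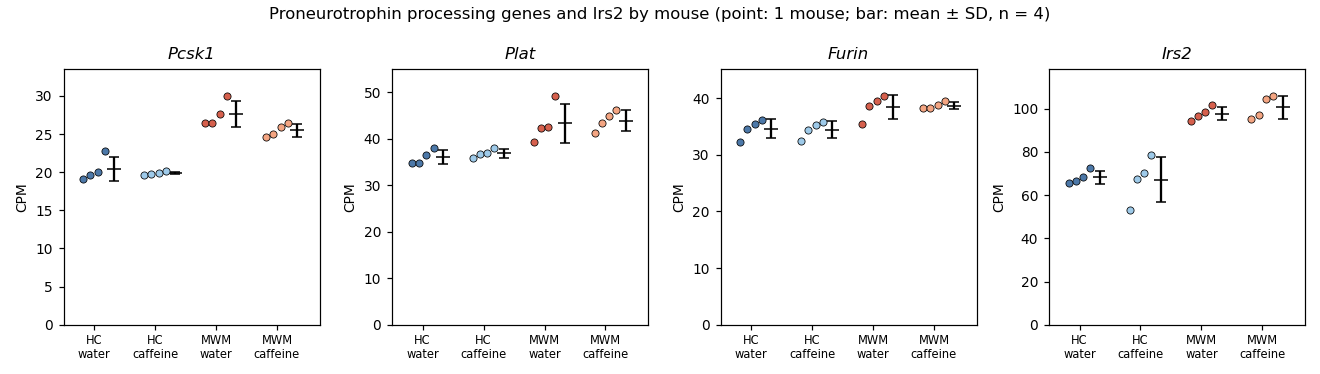
CPM (linear axis from 0) of the precursor-cutting enzymes Pcsk1, Plat and Furin and of the adaptor Irs2 in each mouse of the 4 groups; points are mice and bars the mean ± SD (n = 4). For Pcsk1, Plat and Irs2 all 8 MWM mice lie above all 8 HC mice, and for Furin the ranges meet.

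Behind the receptors, 5 of 22 adaptor and scaffold genes rose (22.7%, against 7.81% of all genes higher), with a median of 0.09. The gene of largest rise among them was Irs2, an insulin receptor substrate that links tyrosine kinase receptors to PI3K. Irs2 ranged from 53.0 to 78.5 CPM in home cage mice and from 94.4 to 106 CPM in trained mice and rose by 0.55 (standard error 0.06; adjusted p = 4.68e-05, edgeR), with 0.52 in water mice and 0.58 in caffeine mice. Crkl, an adaptor upstream of the small GTPase Rap1, rose by 0.30 (adjusted p = 0.0104, edgeR). In the PI3K and AKT arm 3 of 18 genes rose and 1 fell (22.2% called, against 14.5% of all genes), with a median of 0.09. Among these, Foxo3, a transcription factor that AKT keeps out of the nucleus, and Mtor, the growth kinase, rose by 0.22 and 0.15, and Bad, a cell death gene whose product AKT inactivates, was lower by -0.17 (adjusted p = 0.026, 0.0296 and 0.0483, edgeR). Bad missed the threshold without the count filter, with GC content and length offsets, with either marker level as a covariate (adjusted p from 0.101 to 0.267 over these 4) and without HC_water mouse 20 (adjusted p = 0.108). The Ras and MAPK arm had 4 of 22 genes higher, with changes of 0.11 to 0.19, a share of 18.2% against 7.81% of all genes, and a median of 0.04.

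Of 19 genes for trafficking and turnover, which take receptors off the surface or return them, 4 rose and 1 fell, a share of 26.3% called against 14.5% of all genes, with a median of 0.05. The ubiquitin ligases Cbl and Nedd4l rose by 0.33 (adjusted p = 0.00572) and 0.23 (adjusted p = 0.013, edgeR), and Traf4, which encodes another ubiquitin ligase, fell by 0.26 (adjusted p = 0.0733, lost in 10 of 16 fits with a mouse left out and in the same 4 other fits as Bad). In the p75 arm 1 of 19 genes passed (5.26%, below the 14.5% of all genes). This was Traf6, an adaptor that p75NTR recruits, which rose by 0.24 (adjusted p = 0.00672, edgeR) without overlap between trained and home cage mice. None of the 13 genes of the PLCG and calcium arm passed, beside the same 14.5% of all genes. In all, 4 of the 132 pathway genes (Pcsk1, Plat, Irs2 and Traf6) did not overlap between trained and home cage mice, a share to be read beside the 1.32% given above for all genes. Bad and Traf4 were named after their values were seen.

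**Figure D5:**
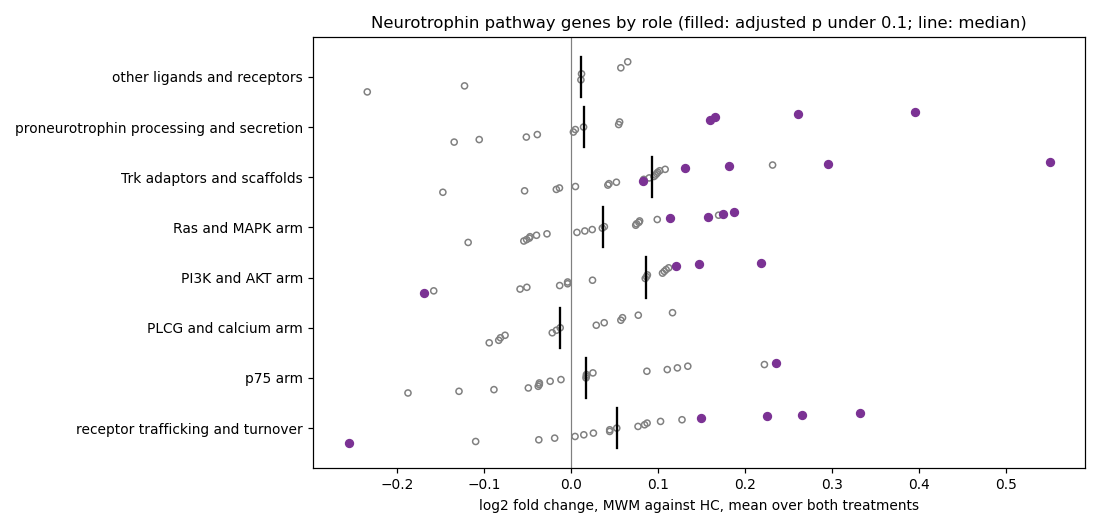
Log2 fold change of MWM against HC over both treatments for the 132 tested pathway genes by role, 1 point per gene; filled points have an adjusted p under 0.1 and black lines are medians. Filled points lie to the right of 0 except 2, Bad and Traf4, and the medians of the 8 roles run from -0.01 to 0.09.

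Across the 16 mice the 7 genes fell into different patterns, given here as a description only. Likeness was taken as the mean absolute difference of z scores of log2 CPM, with 0 for identical profiles, among 13379 genes. Ntrk2 and Sort1 were the most alike pair among the 7 (0.472), then Bdnf and Ntrk3 (0.506), and Ngfr and Ntrk3 the least (1.47). The nearest genes were Grm7, Sbno1 and Crispld1 for Bdnf (0.346 to 0.364), and Mycbp2, Shprh and Ythdc2 for Ntrk3 (0.204 to 0.227). They were Pcdhgc5, Dbt and Pcdhgc3 for Ntrk2 (0.282 to 0.298), Mtmr9, Tex2 and Pip4k2b for Sort1 (0.254 to 0.308), Lmo1, Ppp1r1b and C1qc for Ngfr (0.311 to 0.333), and Zmat3, Rusc2 and Pik3cd for Vgf (0.361 to 0.403). The nearest genes of Ngfr included the microglial complement gene C1qc, which came after Lmo1 and Ppp1r1b (0.333, against 0.311 and 0.331). What this likeness rests on was not tested, and all profiles share library depth and tissue makeup.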

How the data were processed

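RNA-Seq libraries were made from polyA RNA of dorsal hippocampus with a stranded kit, and the authors mapped single-end reads to mm10 with STAR (the study's methods also name Bowtie 2), keeping unique alignments, and counted them per Ensembl gene with HTSeq 0.6.1p1 in union mode. The deposited values are raw read counts per gene, and the whole series' table was used without recounting. The strand setting of the counting is not given in the sources used here.

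Genes passing edgeR's expression filter (17830 of 35328) were fitted in edgeR 4.0.16 (R 4.3.3) with TMM scaling, 1 mean for each of the 4 groups, and a quasi-likelihood test over the 16 libraries. P-values were adjusted over all genes by the Benjamini-Hochberg method and called under 0.1. CPM are counts divided by the TMM-scaled library size in units of 1000000, and RPKM divide them by GENCODE M21 exonic length. Gene symbols and positions came from GENCODE M21, which matched 35247 of the 35328 identifiers. DESeq2 1.42.0 was an alternative, since the study used that tool. Other alternatives changed the scaling, filter, threshold, dispersion prior, libraries fitted, and GC and length offsets. A marker level is the mean log2 CPM (prior count 2) of the listed genes. Marker levels were compared by exact permutation tests over mice (SciPy 1.17.1). The tests were tried on simulated data.

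Mice were grouped by their labels, and the tests set differences between groups against the spread between mice. Library totals ranged from 23078094 to 49949281, with medians of 30203500, 34736300, 37367900 and 42497900 in HC_water, HC_Caffeine, MWM_water and MWM_Caffeine. All 24 replicate pairs differed by more than counting noise (chi-square of 5.47 to 32.1 per degree of freedom). The members and lists were chosen with earlier results of these data known. Named genes were the members, the other ligands and receptors, up to 10 called pathway genes of smallest p per comparison, and 3 most alike genes per member among those with a mean log2 CPM of at least 1; some genes under this rule are not reported here.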

Additional observations from a re-analysis of the deposited data

Results flagged for a closer look

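Dixon's criterion for groups of 4 (the gap to the next mouse over the range of the group) was applied to 96 gene and group pairs, and in 9 of these pairs 1 mouse stood apart. Chance alone marks about 1 in 20 such pairs. Among the members, HC_Caffeine mouse 17 lay below the rest of its group for Ntrk2 (455 CPM, the others 551 to 562) and Sort1 (636 CPM, the others 777 to 789), and it was low for Sorl1 as well (379 CPM, the others 451 to 465). Ntf3 was high in MWM_Caffeine mouse 40 (9.52 CPM, the others 6.00 to 6.57), the mouse with the highest dentate granule cell marker level of its group (937 CPM summed). Vgf was low in MWM_water mouse 38 (135 CPM, the others 167 to 171), which had the highest such level of all 16 mice (987 CPM summed). Whether these levels account for the values of single mice was not tested.

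Among the other genes, Sorcs1 was high in HC_water mouse 6 (19.6 CPM, the others 11.8 to 13.1), Sorcs2 low in MWM_water mouse 24 (51.3 CPM, the others 67.1 to 67.7), Sorl1 low in HC_water mouse 20 (384 CPM, the others 457 to 459) and Nedd4l high in MWM_Caffeine mouse 40 (242 CPM, the others 220.0 to 224).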

How the results depend on the processing

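The alternatives were other scaling, DESeq2, the compared groups alone, no or a stricter filter, a threshold of 0.05, a robust dispersion prior, GC content and length offsets, each library left out, and, added after the data were seen, marker levels as covariates. Ngfr kept its call for training over both treatments in each of these that gives it a value, from -0.66 to -0.44 (adjusted p from 0.00739 to 0.0702) and, with a library left out, from -0.61 to -0.45 (adjusted p from 0.0208 to 0.0647), but not in 6 of 24 fits that left a marker or a mouse out of the dentate granule cell fit. Training over both treatments called 2 of the 7 genes with GC content and length offsets and 3 with the dentate granule cell level, and 1 to 2 with a library left out (Vgf also, without HC_Caffeine mouse 2, adjusted p = 0.0958). In caffeine mice the count was 1 by DESeq2, 1 with GC content and length offsets, 2 with the dentate level, and 0 to 1 with a library left out. With the dentate level 10.5% (both treatments) and 5.96% (caffeine mice) of all genes passed. The shares of all genes with GC content and length offsets or with a library left out are not given here, so those counts cannot be set against a background. Pathway genes called numbered 5 in water and 12 in caffeine mice by DESeq2, and 13 over both treatments at 0.05. Of all 17830 genes DESeq2 called 426 in water and 1581 in caffeine mice, and the share of all genes at 0.05 is not given here. With a library left out the pathway genes called numbered 2 to 6, 3 to 10 and 14 to 30 in water mice, caffeine mice and over both. With the choroid plexus level 16 passed over both treatments, 11 higher and 5 lower, and the share of all genes in that fit is not given here. The cause of these shifts was not tested.

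Other changes of sign were among uncalled differences near 0, all log2 fold changes. Without the filter these were Bdnf 0.0036 (caffeine, both) and Ntrk2 0.0060 (training, water). With GC content and length offsets they were Bdnf 0.027 (caffeine, both), Ntf3 0.0050 (training, water), Ntrk2 -0.022 (training, caffeine), -0.054 (training, both), 0.0030 (caffeine, both), Ntrk3 0.051 (caffeine, HC), 0.016 (caffeine, MWM), -0.022 (training, caffeine), -0.035 (difference of responses), -0.0040 (training, both), 0.033 (caffeine, both) and Sort1 -0.0049 (training, water). With the dentate granule cell level they were Bdnf 0.012 (caffeine, both) and Ntrk3 0.0085 (caffeine, MWM). With the choroid plexus level they were Bdnf 0.097 (caffeine, both), Ntrk3 0.058 (caffeine, HC), 0.013 (caffeine, MWM), -0.045 (difference of responses), 0.035 (caffeine, both) and Vgf -0.052 (caffeine, HC).

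With a library left out, signs also turned for caffeine in HC (Bdnf -0.033 to 0.16, Ntrk3 -0.099 to 0.038, Ngfr -0.11 to 0.17, Sort1 -0.098 to 0.0018, Vgf -0.022 to 0.13), training in caffeine (Bdnf -0.033 to 0.14), caffeine over both (Bdnf -0.048 to 0.048, Ntf3 -0.022 to 0.16, Ntrk2 -0.053 to 0.00085, Ntrk3 -0.062 to 0.0082, Ngfr -0.13 to 0.017), caffeine in MWM (Ntf3 -0.26 to 0.10, Ntrk2 -0.034 to 0.044, Ntrk3 -0.080 to 0.047, Ngfr -0.26 to 0.0076, Sort1 -0.043 to 0.011), training in water (Ntf3 -0.25 to 0.11, Ntrk2 -0.038 to 0.051) and the difference of responses (Ntrk3 -0.061 to 0.077, Ngfr -0.31 to 0.015, Sort1 -0.014 to 0.085, Vgf -0.0026 to 0.15). Of the pathway calls, Bad and Traf4 missed the threshold under 4 alternatives each and Mtor, Plat (water), Foxo3 and Crkl (caffeine) under 1 to 3.

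No paired analysis was possible because the groups share no replicate numbers. The depth limits Ngfr and Ntf3 most, and home cage and trained mice carry separate runs of label numbers and differ in library depth, which cannot be told apart from training.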
